A study of Danio rerio with 31 samples.

Results

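The genes described here are 74 receptor and regulator genes of the zebrafish brain, taken from the 15648 genes of a microarray table. They were chosen by name, as the rows whose symbol starts with gpr and a digit, with adgr, or with rgs and a digit. The choice was made with earlier results of these data known. They comprise 35 gpr genes, 18 adhesion receptor genes (adgr) and 21 rgs genes, and 21 of the 74 lie in the dimmest 25% of the table by mean signal. Expression was measured in telencephalon and midbrain samples of 1-year-old male and female zebrafish from 2 wild populations, Nadia and Pargana North, and 2 domesticated ones, Scientific Hatchery and Transgenic Mosaic 1. Every sample carries the treatment label control, and RNA was extracted from each brain sample separately. There were 15 telencephalon arrays (8 wild and 7 domesticated; 7 male and 8 female) and 16 midbrain arrays (8 wild and 8 domesticated; 7 male and 9 female), with 4 arrays for each population in each region except 3 for Scientific Hatchery telencephalon. Values are log2 expression as the authors normalized it, array medians lie between 9.57 and 9.74, and precision is limited by how few arrays there are. Single arrays are named by their label codes, in which T stands for telencephalon and M for midbrain. Symbols are spelled as the annotation gives them, 45 of them in capitals, and rows that share a symbol are told apart by gene ID.

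G protein-coupled receptors pass a signal across the cell membrane by loading GTP onto a heterotrimeric G protein, whose alpha and beta-gamma subunits then act on enzymes and channels. Many gpr genes encode orphan receptors, for which no natural ligand is settled. Adhesion receptors have a long extracellular part that binds neighbouring cells or matrix, and many cleave themselves between it and the membrane part. RGS proteins (regulators of G protein signalling) speed up GTP hydrolysis by the alpha subunit and so end the signal. The 21 rgs genes, counted by name, include 4 for RGS7BP and RGS9BP, which are binding partners of RGS proteins.

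Most marker genes separated the regions as labelled. Of the telencephalon markers 10 of 13 were higher in telencephalon than in midbrain and 2 were lower. Of the midbrain markers 13 of 13 were lower. The midbrain samples also carried more of other markers, with 15 of 18 cerebellar, 8 of 11 diencephalic, 6 of 8 myelin, 9 of 12 endothelial and pericyte, and 6 of 8 red blood cell markers lower in telencephalon. In bulk tissue, fewer cells of a type and less RNA per cell cannot be told apart. Arrays T140, T109 and T99 correlated least with the other telencephalon arrays. Array T109 averaged 9.64 over the retina and pineal markers, against 6.01 to 7.62 on the other telencephalon arrays. In midbrain M98 (8.32) and M21 (7.81) were highest in these markers, against 5.83 to 6.93 on the other midbrain arrays. Both arrays numbered 21 of Pargana North, labelled female, stood closer to the male arrays in DIO2, the deiodinase gene that differed between the sexes in both regions. T21 read 10.79, against 11.04 to 11.83 in males and 9.09 to 9.80 in the other females, and M21 read 11.66, against 11.62 to 12.46 in males and 9.85 to 10.65 in the other females. Without both arrays 34 of the 74 genes differed between regions, of which 32 were called with them. ADGRL1 and RGS5 were lost, and GPR176 and the GPR37L1 row ENSDARG00000056774 were gained. Between wild and domesticated telencephalon 1 gene differed without both arrays, and between the sexes 0 did. Among the populations in telencephalon 5 genes differed (limma, moderated F test), against 7 with all arrays. RGS9 (adjusted p = 0.052) and rgs3b (0.10) were lost.

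Between the regions, telencephalon differed from midbrain in 34 of the 74 genes (45.9%), where 43.6% of all 15648 genes passed the same test (limma, Benjamini-Hochberg adjusted p under 0.05 over all genes). Of these, 21 were higher in telencephalon and 13 lower, against 21.6% of all genes higher and 22.1% lower, so the share of genes that changed was near that of the table. By family, 17 of 35 gpr genes changed (10 higher, 7 lower), 6 of 18 adhesion receptors (3 higher, 3 lower) and 11 of 21 rgs genes (8 higher, 3 lower). A change of 2-fold or more that passed the test was seen in 8 of the 74 genes (10.8%), against 8.07% of all genes; 7 of the 8 were gpr genes and 1 was an rgs gene. The median difference over the 74 genes was -0.03, against 0.01 over all genes, and the median size of the difference was 0.23 against 0.22. All telencephalon arrays lay apart from all midbrain arrays for 7 of the 74 genes (9.46%), against 6.13% of all genes. Among the 21 dim genes 6 changed, and among the other 53 genes 28 did. The dim genes that changed include gpr55a, adgrg1, RGS9 and RGS5.

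**Figure D1:**
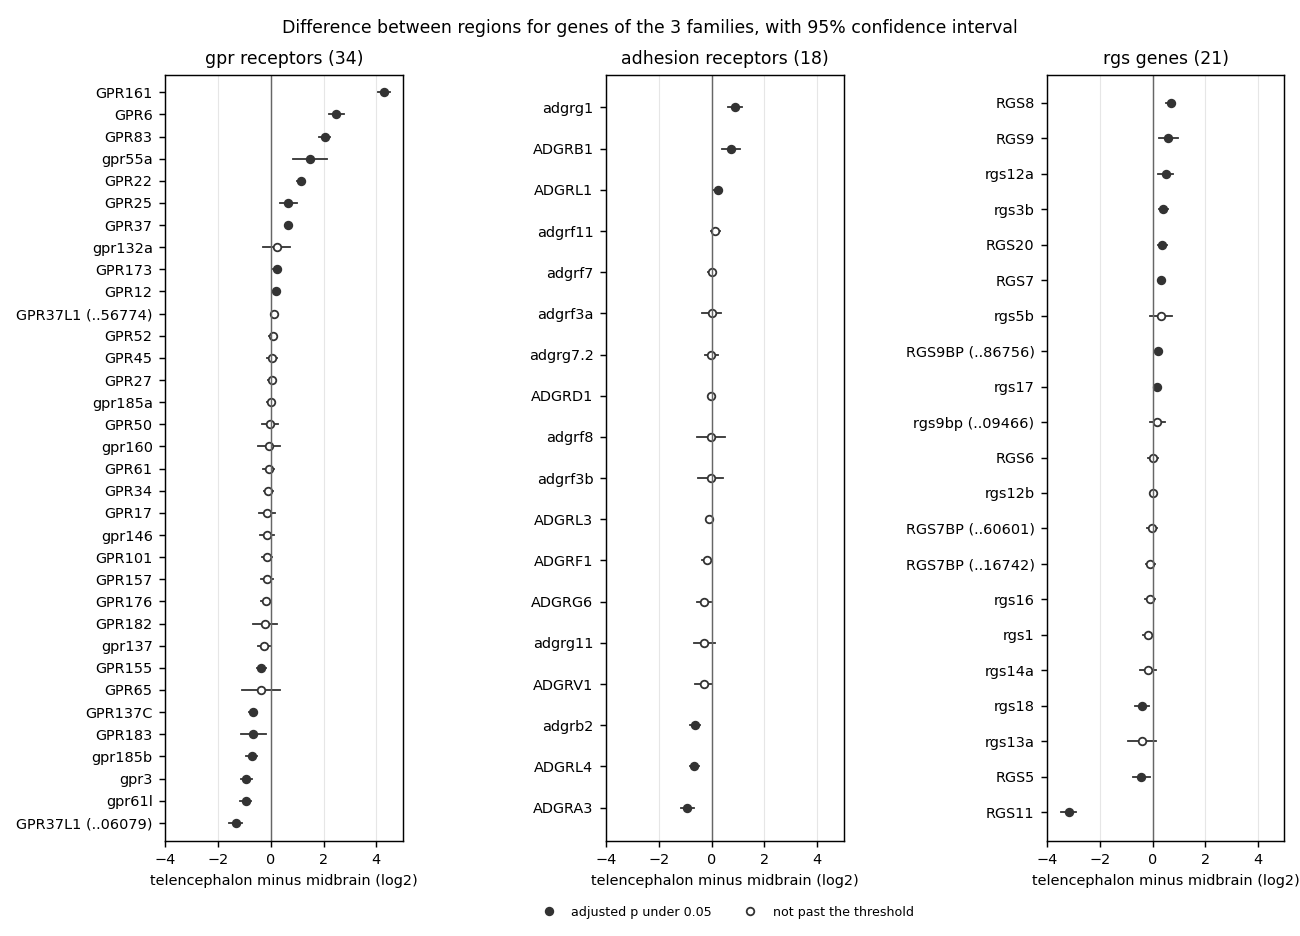
Telencephalon minus midbrain difference in log2 expression for 34 gpr, 18 adhesion receptor and 21 rgs genes, in one panel per family; points are limma estimates, bars are 95% confidence intervals, and filled points passed an adjusted p of 0.05. GPR161 at 4.30 and RGS11 at -3.18 lie farthest from 0, and most adhesion receptors lie within 1 log2 unit of it.

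GPR161 encodes an orphan receptor of the primary cilium that restrains Hedgehog signalling. On the log2 scale GPR161 spanned 12.67 to 13.64 over the telencephalon arrays (median 13.12), against 8.03 to 9.37 over the midbrain arrays (median 8.88). No array of one region came near those of the other. The difference was 4.30 (SE 0.11, adjusted p = 2.4e-20), a 19.6-fold higher level in telencephalon, and it kept between 4.25 and 4.35 when any single array was left out.

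GPR6, gpr3, GPR12 and the paired genes gpr185a and gpr185b form a group of receptors that raise cyclic AMP without added ligand; gpr185 is known from Xenopus oocytes. These close relatives took opposite sides, with 2 of the 5 higher in telencephalon and 2 lower, against 21.6% and 22.1% of all genes. GPR6 lay between 11.72 and 13.07 in telencephalon (median 12.49), against 8.87 to 10.89 in midbrain (median 10.04). The regions did not overlap, and GPR6 was higher in telencephalon by 2.48 (SE 0.14, adjusted p = 2.8e-13), which is 5.58-fold. The gpr3 values ran the other way, from 11.78 to 13.16 in telencephalon (median 12.58), against 13.02 to 14.03 in midbrain (median 13.42). The ranges of gpr3 met only at the top of telencephalon and the bottom of midbrain, and the gene was lower in telencephalon by -0.93 (SE 0.10, adjusted p = 4.7e-08). GPR12 differed by 0.21 (SE 0.07, adjusted p = 0.024). The paralogs gpr185b and gpr185a differed by -0.73 (SE 0.10, adjusted p = 1.3e-06) and 0.01 (SE 0.08, adjusted p = 0.95), so that only the first passed the test; the difference between the paralogs itself was not tested.

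**Figure D2:**
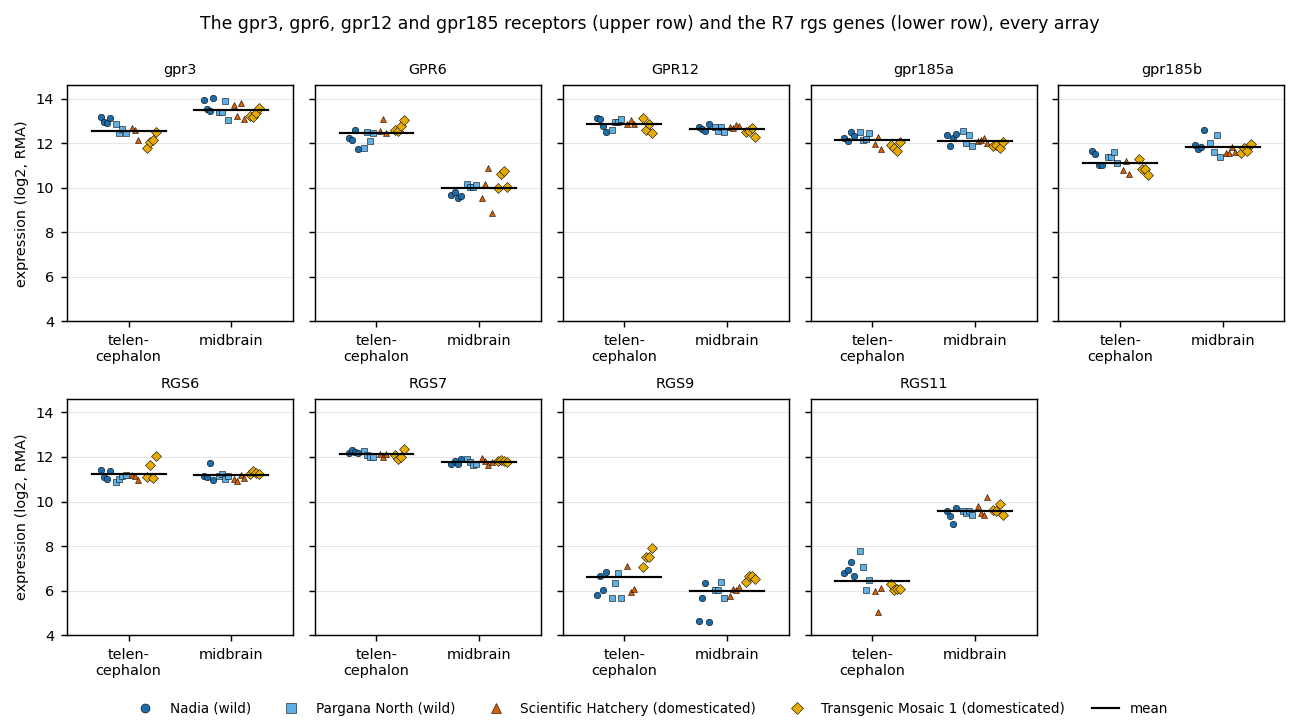
Log2 expression on every array in telencephalon (left) and midbrain (right) for gpr3, GPR6, GPR12, gpr185a and gpr185b in the upper row and for RGS6, RGS7, RGS9 and RGS11 in the lower row; symbols mark the 4 populations and lines are means. GPR6 is higher in telencephalon than in midbrain (median 12.49 against 10.04), and gpr3 is lower in telencephalon than in midbrain (12.58 against 13.42). RGS11 is the one R7 gene whose regions do not overlap.

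GPR83, an orphan receptor of the brain, lay between 10.79 and 11.60 in telencephalon (median 11.27), against 8.20 to 9.83 in midbrain (median 9.20). It was higher in every telencephalon array than in any midbrain array, by 2.04 (SE 0.10, adjusted p = 1.4e-14). The gpr55a gene, whose mammalian counterpart responds to lysophosphatidylinositol, was higher by 1.47 (SE 0.31, adjusted p = 4.0e-04), although its midbrain arrays reached 8.11, above the telencephalon maximum of 7.89. Of the further gpr genes whose regions did not overlap, chosen after their values were seen, GPR22 was higher in telencephalon by 1.15 (SE 0.08) and GPR37 by 0.65 (SE 0.06).

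On the lower side, GPR37L1, a relative of GPR37 known from astroglia, was measured by 2 rows, of which 1 changed. ENSDARG00000006079 lay between 7.76 and 9.0 in telencephalon (median 8.60), against 8.93 to 10.17 in midbrain (median 9.96). Only the ends of the ranges touched, and this row was lower in telencephalon by -1.34 (SE 0.12, adjusted p = 1.5e-09). The other GPR37L1 row, ENSDARG00000056774, differed by 0.12 (SE 0.06, adjusted p = 0.11). Radial glia and astroglia markers went both ways, with 4 of 10 higher and 3 of 10 lower in telencephalon and mean levels of 10.07 to 10.67 in telencephalon, against 10.07 to 10.62 in midbrain; their part in this result was not tested. The orphan receptor gene gpr61l ranged from 8.31 to 9.98 in telencephalon (median 9.31), against 9.77 to 10.63 in midbrain (median 10.39). Most telencephalon arrays lay below the midbrain minimum, and gpr61l was lower by -0.95 (SE 0.10, adjusted p = 1.9e-08). Its relative GPR61 differed by -0.08 (SE 0.10, adjusted p = 0.57). GPR137C, a lysosomal membrane protein gene, was lower by -0.67 (SE 0.07, adjusted p = 1.7e-08), and gpr137 differed by -0.25 (SE 0.11, adjusted p = 0.068, and 0.035 and 0.048 with the replicate number as a random and a fixed block).

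Some receptors are known for a cell type. GPR34, a lysophosphatidylserine receptor of microglia, differed by -0.09 (SE 0.08, adjusted p = 0.38), while 6 of 15 microglia and leukocyte markers were lower in telencephalon and 1 higher, with mean levels of 8.56 to 9.25 in telencephalon, against 8.84 to 9.92 in midbrain. GPR65, a proton-sensing receptor known from leukocytes, spanned 6.56 to 10.03 in telencephalon, against 6.40 to 10.48 in midbrain, and differed by -0.38 (SE 0.35, adjusted p = 0.40). Myelin markers averaged 9.56 to 10.85 in telencephalon, against 11.34 to 11.83 in midbrain. On the same arrays adgrg1, an adhesion receptor of oligodendrocyte precursors and cortical neural progenitors in mouse, was the adhesion receptor with the largest rise in telencephalon. The adgrg1 values lay between 6.46 and 7.85 in telencephalon (median 6.87), against 5.49 to 6.64 in midbrain (median 5.93). The ranges overlapped only slightly, and the difference was 0.88 (SE 0.12, adjusted p = 2.0e-06). ADGRG6, which Schwann cells need for myelination, differed by -0.29 (SE 0.13, adjusted p = 0.066, and 0.031 and 0.032 with the random and the fixed block). The remaining measured adhesion G genes, adgrg11 and adgrg7.2, differed by -0.29 (SE 0.20, adjusted p = 0.25) and -0.01 (SE 0.11, adjusted p = 0.96).

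**Figure D3:**
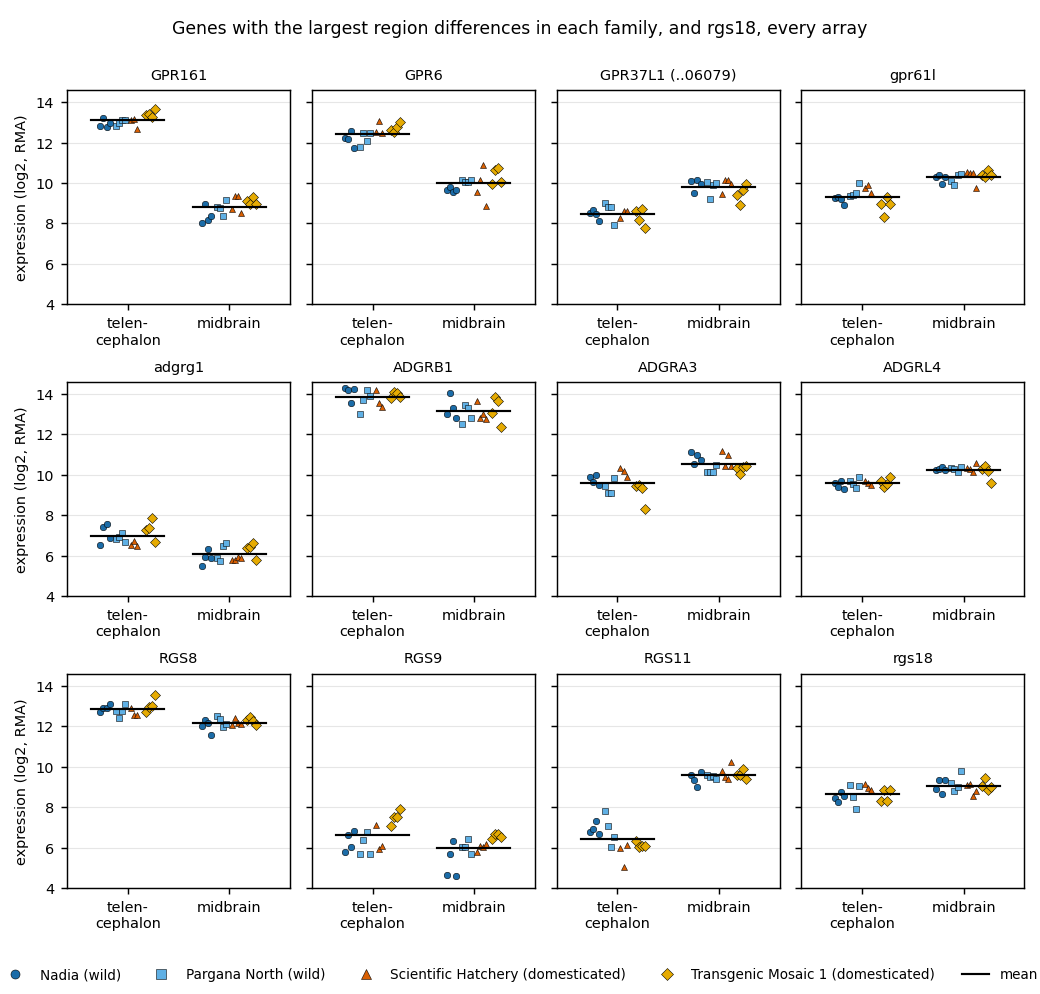
Log2 expression on every array in telencephalon (left) and midbrain (right) for 11 genes with the largest differences in their family and direction, and for rgs18; symbols mark the populations and lines are means. GPR161, GPR6 and RGS11 show no overlap between regions, while the ADGRB1 and RGS9 arrays overlap although their means differ by 0.73 and 0.60.

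Brain angiogenesis inhibitor receptors, the adhesion B group, act at synapses and in the engulfment of dying cells. ADGRB1 lay between 12.99 and 14.30 in telencephalon (median 13.92), against 12.37 to 14.06 in midbrain (median 13.03). The ranges overlapped widely, and ADGRB1 was higher in telencephalon by 0.73 (SE 0.16, adjusted p = 6.3e-04). The related adgrb2 was lower by -0.63 (SE 0.08, adjusted p = 9.2e-07). ADGRA3, a receptor tied to planar cell polarity, ranged from 8.29 to 10.35 in telencephalon (median 9.52), against 10.06 to 11.19 in midbrain (median 10.44). Most telencephalon arrays were below the midbrain minimum, and the difference was -0.94 (SE 0.12, adjusted p = 3.8e-07).

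Latrophilins, the adhesion L group, bind teneurins and FLRT proteins across the synapse, except ADGRL4, which is known from endothelial cells. ADGRL4 lay between 9.31 and 9.90 in telencephalon (median 9.59), against 9.60 to 10.57 in midbrain (median 10.28). The regions overlapped in a narrow band, and ADGRL4 was lower in telencephalon by -0.67 (SE 0.08, adjusted p = 1.6e-07). Endothelial and pericyte markers moved with it: 9 of 12 were lower and 0 higher in telencephalon, their mean level spanned 9.32 to 9.83 in telencephalon, against 9.83 to 10.44 in midbrain, and their part in the result was not tested. ADGRL1 was higher by 0.23 (SE 0.08, adjusted p = 0.029), with an adjusted p of 0.061 when the replicate number entered as a fixed block, and 0.091, 0.053 and 0.062 without T57, M98 and M140. The ADGRL1 call was also lost without Nadia (0.074), Pargana North (0.12), Scientific Hatchery (0.078) or both arrays numbered 21 (0.066). ADGRL3 differed by -0.12 (SE 0.05, adjusted p = 0.060, and 0.028 with the random block). The Usher protein gene ADGRV1 and the orphan ADGRD1 differed by -0.31 (adjusted p = 0.12) and -0.02 (adjusted p = 0.88). Of the 6 adhesion F genes 0 passed the test (limma, 0 also at an unadjusted p under 0.05), against 43.6% of all genes. Among these 6 genes, 5 had mean signals between 4.12 and 4.85.

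Among the rgs genes, the R7 group works as complexes with the G protein subunit GNB5 and the anchors RGS7BP and RGS9BP. RGS11, known from ON bipolar cells of the mouse retina, lay between 5.06 and 7.79 in telencephalon (median 6.30), against 9.0 to 10.22 in midbrain (median 9.56). Every midbrain array was above every telencephalon array, and RGS11 was 9.07-fold lower in telencephalon (-3.18, SE 0.14, adjusted p = 1.3e-15). RGS9, known from photoreceptors and striatal neurons, ranged from 5.68 to 7.90 in telencephalon (median 6.64), against 4.59 to 6.68 in midbrain (median 6.05). Most arrays of the regions overlapped, and RGS9 was higher in telencephalon by 0.60 (SE 0.17, adjusted p = 0.0063), with an adjusted p of 0.11 without Transgenic Mosaic 1. Retina and pineal markers did not follow the regions as a list: 1 of 14 was higher and 1 of 14 lower, with mean levels of 6.01 to 9.64 in telencephalon, against 5.83 to 8.32 in midbrain. RGS7 was higher by 0.33 (SE 0.05, adjusted p = 6.7e-06), and RGS6 differed by 0.03 (SE 0.09, adjusted p = 0.84). GNB5 was higher by 0.34 (SE 0.09, adjusted p = 0.0033). Of the anchors, RGS9BP (ENSDARG00000086756) was higher by 0.22 (SE 0.07, adjusted p = 0.017), and rgs9bp (ENSDARG00000009466) differed by 0.18 (SE 0.14, adjusted p = 0.32). The RGS7BP rows ENSDARG00000016742 and ENSDARG00000060601 differed by -0.08 (adjusted p = 0.55) and -0.03 (adjusted p = 0.85).

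R4 proteins are small RGS proteins with little beyond the catalytic domain. Of the 8 measured genes 4 changed (50%), against 43.6% of all genes. RGS8, first known from brain and strong in cerebellar Purkinje cells of rodents, lay between 12.39 and 13.57 in telencephalon (median 12.88), against 11.56 to 12.51 in midbrain (median 12.17). The ranges touched at their ends, and RGS8 was higher in telencephalon by 0.69 (SE 0.08, adjusted p = 1.1e-07), while 15 of 18 cerebellar markers were lower there. The rgs3b gene was higher by 0.41 (SE 0.08, adjusted p = 3.0e-04). RGS5, a pericyte gene in mammals, was lower by -0.43 (SE 0.16, adjusted p = 0.029), and rgs18, known from platelets, by -0.39 (SE 0.13, adjusted p = 0.014). These were also the only called genes without the same sign in all 4 populations: the Pargana North difference was 0.46 for RGS5, and the Scientific Hatchery difference was 0.07 for rgs18. The Pargana North telencephalon arrays read 4.95, 5.74, 5.90 and, on T140, 7.46 for RGS5, against 4.86 to 5.85 in midbrain. T140 is 1 of the least correlated telencephalon arrays, and it alone lay well above the midbrain values. Leaving out T98, T85 or T57 took RGS5 to an adjusted p of 0.057, 0.055 or 0.065. Its call was also lost with quantile normalization (0.12), with arrays shifted to the same median (0.060), without the sex term (0.065), without both arrays numbered 21 (0.054), without the 2 arrays of each region highest in retina markers (0.10), and without Nadia (0.12), Transgenic Mosaic 1 (0.14) or Scientific Hatchery, where the difference was -0.21 (0.42). The rgs18 call was lost with quantile normalization (0.058), without Nadia (0.096) and without Transgenic Mosaic 1 (0.077). The related rgs5b differed by 0.32 (SE 0.20, adjusted p = 0.21), and rgs1, rgs13a and rgs16 differed by -0.17, -0.40 and -0.11, none past the threshold, although rgs13a passed with the fixed block (adjusted p = 0.011). Both RZ genes, which act on the Gz alpha subunit, were higher: RGS20 by 0.36 (SE 0.08, adjusted p = 7.3e-04) and rgs17 by 0.18 (SE 0.06, adjusted p = 0.013). In the R12 group rgs12a was higher by 0.49 (SE 0.13, adjusted p = 0.0045), and rgs12b and rgs14a differed by 0.02 (adjusted p = 0.79) and -0.17 (adjusted p = 0.35).

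Of 68 genes in 6 lists that these receptors and regulators work with, 37 (54.4%) differed between regions, 21 higher and 16 lower in telencephalon, against 43.6% of all genes. Among G protein alpha subunits 7 of 17 were higher in telencephalon and 3 lower, led by GNAQ (1.39, SE 0.08) and gna15.2 (0.54, SE 0.17) on the higher side and GNA13 (-0.51, SE 0.06) and gnao1b (-0.48, SE 0.08) on the lower. Of the beta and gamma subunits 4 of 14 were higher and 1 lower, with GNG2 at 0.69 (SE 0.10) and gng8 at -3.33 (SE 0.54). Of the adenylyl cyclases and phospholipases C beta, which make or release the second messengers, 5 of 9 were higher and 3 lower, with ADCY1 at 1.12 (SE 0.11) and PLCB3 at 1.1 (SE 0.15), and the ADCY2 rows ENSDARG00000058392 and ENSDARG00000014588 at -1.82 (SE 0.12) and -0.65 (SE 0.09). Of the ligands and partners of adhesion receptors 3 of 16 were higher and 6 lower, with the Nogo receptor relatives rtn4rl2b at 4.53 (SE 0.21) and rtn4rl2a at 1.23 (SE 0.17), the teneurin TENM3 at -2.45 (SE 0.09) and C1QL2 at -2.10 (SE 0.19). Receptor kinases and arrestins gave 1 of 5 higher and 0 lower, and other regulators of the G protein cycle 1 of 7 higher and 3 lower.

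Whether the region difference itself varied among the populations was asked with an interaction test. It called 0 of the 74 genes (limma), against 0.0256% of all genes. An unadjusted p under 0.05 was seen in 3 of the 74 and in 600 of all 15648 genes. RGS11 had the smallest p of the 74 (0.0019, adjusted p = 0.71). Its telencephalon minus midbrain difference was -2.50 for the Nadia and -2.66 for the Pargana North fish, against -4.07 for Scientific Hatchery and -3.50 for Transgenic Mosaic 1. The next were gpr61l (adjusted p = 1.0), at -1.06, -0.64, -0.57 and -1.54 in the same populations, and RGS5 (adjusted p = 1.0).

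The labels class each population as wild or domesticated, and these classes were compared within each region. In telencephalon 11 of the 74 genes, and 2404 of all 15648 genes, had an unadjusted p under 0.05 (limma). After adjustment 1 of the 74 genes (1.35%) passed the test, against 1.91% of all genes. That gene, RGS11, was higher in wild fish, as were 0.831% of all genes, while 1.08% of all genes were lower. Its telencephalon values were 6.78, 6.92, 7.29 and 6.68 in Nadia and 7.79, 7.07, 6.02 and 6.50 in Pargana North, against 5.97, 5.06 and 6.13 in Scientific Hatchery and 6.30, 6.04, 6.06 and 6.08 in Transgenic Mosaic 1. All wild arrays except T85 of Pargana North lay above every domesticated array. RGS11 averaged 6.88 ± 0.53 in wild telencephalon (SD, n = 8) and 5.95 ± 0.41 in domesticated telencephalon (SD, n = 7), and the fitted difference was 0.98 (95% confidence interval 0.57 to 1.39, adjusted p = 0.0086). The adjusted p stayed between 0.0021 and 0.036 when single arrays were left out, but it was 0.053 without Nadia, 0.077 without Transgenic Mosaic 1 and 0.11 with telencephalon fitted alone. The midbrain marker list, in which RGS11 is not a member, averaged 6.61 to 7.75 in wild telencephalon and 6.75 to 7.49 in domesticated telencephalon. RGS11 remained called with that list and the diencephalon list as covariates. Those scores were centred within each group, so the fit could not take up a difference in them between populations. The part of such tissue in the RGS11 difference was not tested. The populations are nested within wild and domesticated, so with 2 of each a difference between them and a difference in domestication cannot be told apart.

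The genes next to RGS11 did not pass. The gpr3 gene averaged 12.82 ± 0.28 in wild telencephalon (SD, n = 8) and 12.27 ± 0.32 in domesticated telencephalon (SD, n = 7), a difference of 0.53 (SE 0.15, adjusted p = 0.063). With the replicate number as a random block, gpr3 passed (adjusted p = 0.044) and the count became 2. The gpr3 gene also passed without T99 (adjusted p = 0.031) or M85 (0.046), and its adjusted p was 0.21 without T57. Other fits that it passed were trend and robust moderation (0.042), array weights (0.046) and no sex term (0.049). It passed as well with arrays shifted to the same median, without Pargana North (0.038) and without Scientific Hatchery (0.020). The rgs3b gene averaged 9.35 ± 0.26 in wild telencephalon and 8.90 ± 0.30 in domesticated telencephalon, a difference of 0.44 (SE 0.12, adjusted p = 0.063). It passed without T98 (adjusted p = 0.043), T13 (0.033) or T12 (0.027), and its adjusted p was 0.19 without T123. Without the sex term, with arrays shifted to the same median (0.049) and without Scientific Hatchery (0.034) rgs3b passed too. The gpr3 relatives gpr185b and gpr185a differed by 0.49 (SE 0.14, adjusted p = 0.075) and 0.38 (SE 0.11, adjusted p = 0.088), GPR6 by -0.52 (SE 0.21, adjusted p = 0.21) and GPR12 by 0.04 (SE 0.11, adjusted p = 0.90).

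In midbrain 0 of the 74 genes differed between wild and domesticated fish (limma), against 0.786% of all genes. The unadjusted p was under 0.05 in 6 of the 74 and in 1782 of all 15648 genes. GPR161 came nearest, at 8.58 ± 0.41 in wild midbrain and 9.03 ± 0.31 in domesticated midbrain (SD, n = 8 each), a difference of -0.43 (SE 0.15, adjusted p = 0.19). RGS5 averaged 5.70 ± 0.41 in wild midbrain and 6.27 ± 0.45 in domesticated midbrain (difference -0.62, SE 0.22, adjusted p = 0.21), and GPR22 differed by -0.29 (SE 0.10, adjusted p = 0.22). RGS11 differed by -0.23 in midbrain (95% confidence interval -0.63 to 0.17). The test of whether the wild difference itself differed between telencephalon and midbrain called 0 of the 74 (limma), against 0.0192% of all genes. At an unadjusted p under 0.05 there were 2 of the 74 and 676 of all 15648 genes. RGS11 had the smallest p, at 1.21 (SE 0.28, adjusted p = 0.40), followed by RGS5 at 0.79 (SE 0.32, adjusted p = 1.0) and GPR27 at -0.31 (SE 0.15, adjusted p = 1.0).

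**Figure D4:**
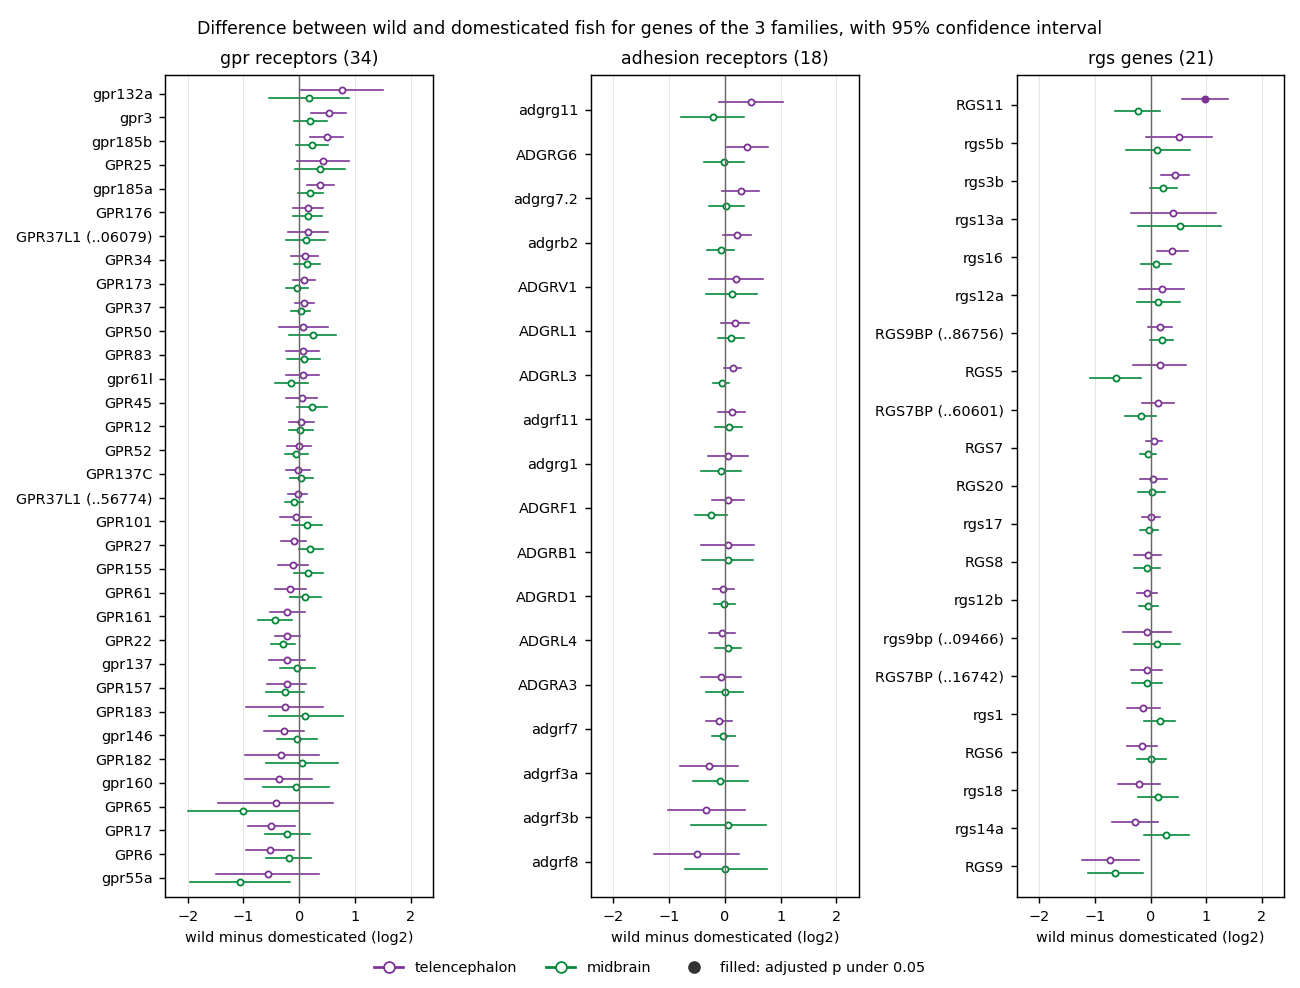
Wild minus domesticated difference in log2 expression for 73 genes of the 3 families, with telencephalon above midbrain in each row; points are limma estimates, bars are 95% confidence intervals, and the filled point passed an adjusted p of 0.05. RGS11 in telencephalon (0.98) is the one filled point, and its midbrain estimate is -0.23.

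The 4 populations were also compared within each region without regard to domestication. In telencephalon 7 of the 74 genes (9.46%) differed among the populations, against 6.44% of all genes (limma, moderated F test): 4 gpr genes, 3 rgs genes and 0 adhesion receptors. In midbrain 0 of the 74 did (limma), against 3.29% of all genes. An unadjusted p under 0.05 was found for 8 of the 74 and for 2639 of all 15648 genes. GPR50, RGS9 and GPR22 came nearest, GPR22 with an adjusted p of 0.10 (0.014 without M140 and 0.33 without M21). The genes that differed in telencephalon included GPR50, RGS11, gpr3, gpr61l, RGS9 and rgs3b. Without Transgenic Mosaic 1 the telencephalon count was 0, and it was also 0 with telencephalon fitted alone. Leaving out T109, the telencephalon array highest in retina markers, gave 2. Leaving out the 2 arrays of each region highest in those markers gave 0, and leaving out Pargana North gave 3.

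GPR50, a relative of the melatonin receptors, read 11.01, 10.73, 12.04 and 10.72 in Nadia telencephalon, 11.63, 11.88, 12.09 and 12.03 in Pargana North, 11.93, 12.28 and 11.85 in Scientific Hatchery, and 10.32, 10.38, 11.70 and 10.80 in Transgenic Mosaic 1. Nadia and Transgenic Mosaic 1 each held 3 low arrays and 1 array (T98 and T63) in the range of the other populations, and the difference passed (F = 8.37, adjusted p = 0.018, and 0.0059 to 0.049 with single arrays left out). The call was lost without Pargana North (0.091), without Transgenic Mosaic 1 (0.11), with telencephalon fitted alone (0.087), without the 3 least correlated telencephalon arrays (0.11) and without the arrays highest in retina markers (0.078). In midbrain GPR50 read 11.02, 10.88, 11.74 and 11.35 in Nadia, 11.87 or more in Pargana North, 11.39 to 12.18 in Scientific Hatchery, and 10.64, 10.59, 11.81 and 10.55 in Transgenic Mosaic 1. The high arrays of Nadia and Transgenic Mosaic 1 were again those numbered 98 and 63. The midbrain test missed the threshold (adjusted p = 0.052), and with the replicate number as a random block it passed (adjusted p = 0.030). It also passed without T98 or T63 (0.033 each), T57 (0.045), T106 (0.038), M63 (0.013) or M57 (0.021). Without M12 the midbrain adjusted p rose to 0.14. GPR50 differed between regions by -0.04 (SE 0.15, adjusted p = 0.88).

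**Figure D5:**
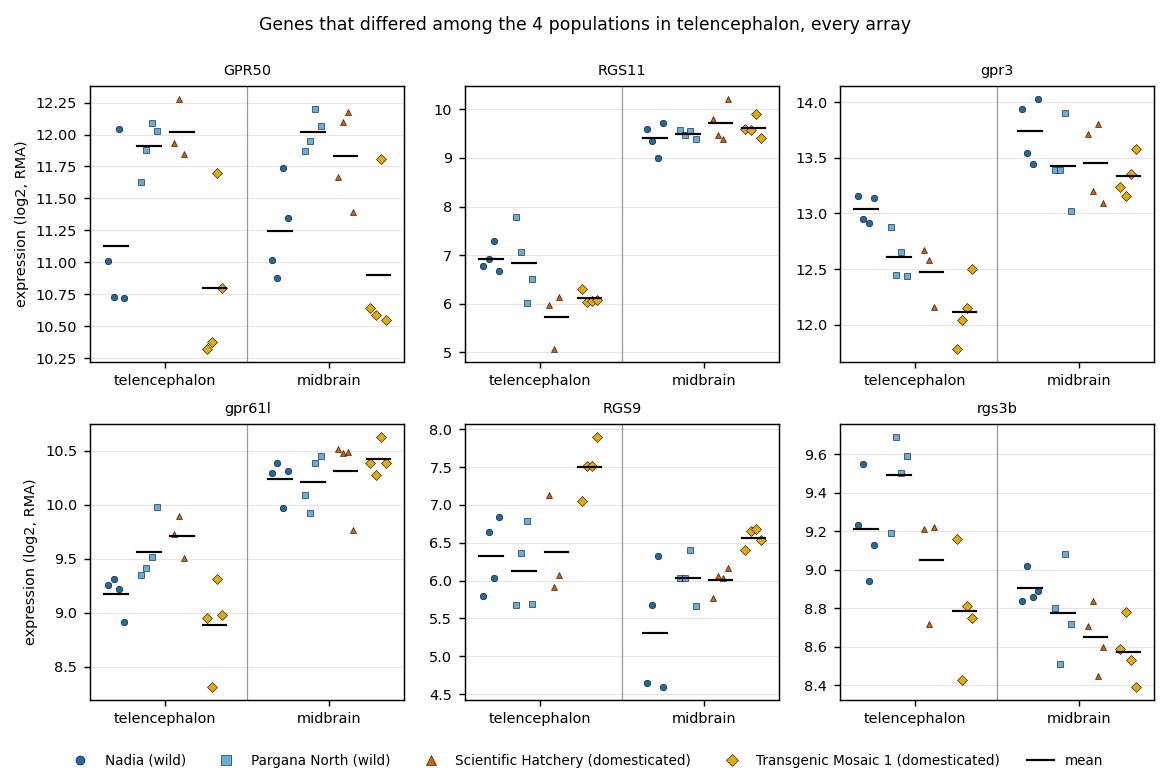
Log2 expression on every array, by population within telencephalon and midbrain, for 6 genes that differed among populations in telencephalon; lines are population means and each panel has its own vertical scale. RGS9 in telencephalon is high in Transgenic Mosaic 1 (7.05 to 7.90), and gpr3 is high in Nadia (12.91 to 13.16).

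The RGS11 values given above also differed among the populations (F = 8.28, adjusted p = 0.018, and 0.056 without T123). The call was also lost without Nadia (0.066), Scientific Hatchery (0.080) or Transgenic Mosaic 1 (0.084), and with telencephalon fitted alone (0.16). For gpr3 the values were 13.16, 12.95, 12.91 and 13.14 in Nadia telencephalon, 12.88, 12.45, 12.65 and 12.44 in Pargana North, 12.67, 12.58 and 12.16 in Scientific Hatchery, and 11.78, 12.04, 12.15 and 12.50 in Transgenic Mosaic 1. Every Nadia array was above all arrays of the other populations (F = 7.21, adjusted p = 0.029). The adjusted p of gpr3 rose to between 0.069 and 0.078 without T7, T106, T12 or T109. Leaving out T63 also ended the call. For gpr3 the adjusted p was 0.32 without Nadia and 0.25 without Transgenic Mosaic 1.

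For gpr61l the telencephalon values were 9.26, 9.31, 9.22 and 8.91 in Nadia, 9.35, 9.41, 9.52 and 9.98 in Pargana North, 9.73, 9.90 and 9.51 in Scientific Hatchery, and 8.95, 8.31, 9.31 and 8.98 in Transgenic Mosaic 1. The Pargana North and Scientific Hatchery arrays all lay above those of the other populations (F = 6.90, adjusted p = 0.033). Leaving out T99, T47, T140, T123, T12 or T109 ended the call (adjusted p 0.051 to 0.11). Of the 18 other fits 8 also lost it, among them array weights (0.073) and those without Pargana North (0.066) or Scientific Hatchery (0.069).

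RGS9 read 5.79, 6.64, 6.03 and 6.84 in Nadia telencephalon, 5.68, 6.36, 6.79 and 5.69 in Pargana North, 7.13, 5.92 and 6.07 in Scientific Hatchery, and 7.05, 7.52, 7.52 and 7.90 in Transgenic Mosaic 1. Transgenic Mosaic 1 was the highest population, with 1 Scientific Hatchery array among its values (F = 6.66, adjusted p = 0.038). The midbrain arrays of Transgenic Mosaic 1 read 6.40, 6.65, 6.68 and 6.54, at or above the maximum of each other population. The midbrain test missed the threshold (adjusted p = 0.13, with 0.033 without M98 and 0.35 without M106). M98 was the midbrain array highest in retina markers. T109, which was high in retina markers, read 7.52, and the telencephalon adjusted p was 0.11 without it. Leaving out T99, T98, T63, T140 or T13 also ended the call. The RGS9 call was lost as well with array weights (0.085), without Pargana North (0.088) and without both arrays numbered 21 (0.052). Without the 3 least correlated telencephalon arrays its adjusted p was 0.38. The rgs3b difference (F = 6.43, adjusted p = 0.042) was lost in 12 of the 31 fits that left out 1 array, with an adjusted p of up to 0.12. It was also lost in 11 of the 18 other fits, among them those without Pargana North (0.25) or Transgenic Mosaic 1 (0.32).

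Of the 68 partner genes, 0 passed the test between wild and domesticated fish in either region (limma), against 1.91% of all genes in telencephalon and 0.786% in midbrain. The unadjusted p was under 0.05 for 7 in telencephalon and 5 in midbrain, and for 2404 and 1782 of all 15648 genes. Among the populations 3 passed in telencephalon (4.41%, against 6.44% of all genes) and 1 in midbrain (1.47%, against 3.29%). In telencephalon RIC8A (adjusted p = 0.032), a chaperone of alpha subunits, SNX14 (adjusted p = 0.023), which carries an RGS-like domain, and TGM2 (ENSDARG00000074094, adjusted p = 0.0018), a transglutaminase that binds adgrg1 protein in mammals, passed the test, and the same TGM2 row passed in midbrain (adjusted p = 0.0034).

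Males and females differed in 0 of the 74 genes in telencephalon (limma), against 0.032% of all genes, and in 0 of 74 in midbrain, against 0.00639% of all genes. In each region 4 of the 74 had an unadjusted p under 0.05. Over all 15648 genes 1681 did in telencephalon and 647 in midbrain. RGS5 came nearest in telencephalon, with 5.11 to 7.46 in males (median 5.90), against 4.58 to 5.74 in females (median 5.17). The male maximum was T140, and the other male arrays read 5.98 or less. The sexes overlapped, and the difference was 0.70 (SE 0.23, adjusted p = 0.31). The next were gpr185b at -0.33 (SE 0.14, adjusted p = 0.42) and RGS8 at 0.25 (SE 0.11, adjusted p = 0.45). In midbrain RGS8 differed by -0.28 (SE 0.11) and adgrg11 by -0.63 (SE 0.28), each with an adjusted p of 1.0. The difference between regions in the male minus female difference called 0 of the 74 (limma; 3 at an unadjusted p under 0.05), against 0% of all genes, of which 515 had an unadjusted p under 0.05. RGS8 had the smallest p (0.53, SE 0.16, adjusted p = 1.0): it averaged 12.99 ± 0.32 in male telencephalon (SD, n = 7) and 12.72 ± 0.19 in female telencephalon (SD, n = 8), with 12.03 ± 0.22 in male midbrain (SD, n = 7) and 12.30 ± 0.17 in female midbrain (SD, n = 9). The next were gpr185b at -0.48 (SE 0.20) and the GPR37L1 row ENSDARG00000006079 at -0.56 (SE 0.25). These counts of 0 did not change when the arrays numbered 21 of Pargana North were left out or counted as male.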

How the data were processed

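The table holds log2 expression values that the authors made with RMA on the Zv9 build, per the submitters' processing notes. Values lie between 3.50 and 15.48, and the deposited scale was taken as log2 on that basis. Per the labels' protocols, Trizol RNA of single brain samples was copied into cDNA with random primers, dyed with Cy3 and put on 1-colour NimbleGen arrays. The sources used here give no hybridization batches, and scanner files were not used. Of 15649 rows, 1 (0.00639%) names no gene and was left out. Gene IDs gave a symbol for 13251 genes through the annotation table, and 2397 have none. Some genes that meet the rules are not reported here. No sequence or coordinate is printed, as no genome of the build was used.

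The deposited log2 values were fitted as they are with limma 3.58.1 (statmod 1.5.0, R 4.3.3), with 8 group means (each region in each population) and sex effects fitted by region, leaving 21 residual degrees of freedom (prior 2.92). The differences tested were telencephalon minus midbrain, and wild minus domesticated and male minus female within a region, with their differences between regions, the interaction of region and population, and F tests among populations. P-values were adjusted by Benjamini-Hochberg over all 15648 genes, with a threshold of 0.05. Each p-value sets a fitted difference against the spread between these arrays within the groups. The fit was tested on simulated data.

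The members, marker lists and partner lists were chosen with earlier results of these data known. Named for the region difference were, in each family, the 5 called genes with the largest difference in each direction among those of 1 sign in all 4 populations, and called genes without it; elsewhere, called genes or the 3 of smallest p, besides subfamilies, paralog pairs and cell type genes. GPR22 and GPR37 in the region comparison fall outside this rule. Alternatives were the dim filter, moderation, array weights, scalings, the sex term, averaged rows of a symbol, left-out arrays and populations, each region alone, a threshold of 0.01 and the replicate block; those added after seeing the data left out arrays or added covariates.

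Whether equal numbers mean one fish is not stated in the labels. In 15 of 15 numbers shared within a population, the deviations from the group means correlated between the regions (r across genes 0.12 to 0.54). Of these, 13 of 15 arrays matched their own number best, so the replicate block runs took the numbers as pairs. The main fit treated all arrays as independent, and its standard errors and p-values do not use the pairing.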

Additional observations from a re-analysis of the deposited data

Results flagged for a closer look

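Among 14 genes, 98 groups of 4 arrays were searched for an array whose gap to the nearest other, divided by the range of the group, exceeds Dixon's 95% critical value. There were 5 such arrays (5.1%), and that value is set so that chance flags about 1 in 20 groups. The gpr61l value of array M57, a Scientific Hatchery midbrain, was 9.77, against 10.48 to 10.52 on the other arrays of its group; M57 also had the lowest diencephalon marker mean of the midbrain arrays, at 7.30. ADGRB1 read 13.55 on T98, a Nadia telencephalon, against 14.18 to 14.30 on the others. ADGRA3 read 8.29 on T99, a Transgenic Mosaic 1 telencephalon, against 9.34 to 9.50, and T99 had the highest telencephalic myelin marker mean, at 10.85. ADGRA3 read 10.49 on M140, a Pargana North midbrain, against 10.12 on each of the others. GPR50 read 11.81 on M63, a Transgenic Mosaic 1 midbrain, against 10.55 to 10.64 on the others, and the telencephalon array of the same number, T63, was also the highest of its group (11.70). The part of these marker levels in the values was not tested.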

How the results depend on the processing

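Direction was checked for genes named for the size, p-value or mixed sign of a difference, and none reversed under any alternative run. Other genes were not checked for it, and the F tests have no direction. The count of region calls stayed within 1.5 times 34 in every fit, with 33 to 36 when single arrays were left out, and the counts for the interaction of region and population, wild midbrain, the wild difference between regions and the sexes stayed at 0, single arrays left out included. For wild telencephalon the count of 1 became 2 with trend and robust moderation, 2 with array weights, 3 without the sex term, 3 with arrays shifted to the same median, 2 with the random replicate block, 0 with each region fitted alone, 0 without Nadia, 2 without Pargana North, 5 without Scientific Hatchery (4 higher, 1 lower), 0 without Transgenic Mosaic 1, and 1 to 2 without single arrays. For populations in telencephalon the count of 7 became 3 without Pargana North, 0 without Transgenic Mosaic 1, 0 with each region fitted alone, 0 at a threshold of 0.01, 4 without the 3 telencephalon arrays that correlate least, 0 without the 2 arrays of each region highest in retina and pineal genes, and 2 to 8 without single arrays (2 without T109, 4 without T63). For populations in midbrain, 0 calls turned into 1 after the dim filter, 1 with trend and robust moderation, 5 with array weights, 1 with the same median, 1 with quantile normalization, 1 with the random replicate block, 1 with each region fitted alone, 1 without the 3 least correlated arrays, 1 with the midbrain and diencephalon scores as covariates, and 0 to 1 without single arrays. The cause of these changes was not tested. Leaving out a population or fitting a region alone also leaves fewer arrays, and the part of that was not tested either.

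With the replicate block, paired analysis gave 38 region calls as a random block and 37 as a fixed block, against 34. The random block kept all 34 and added gpr137, GPR176, ADGRG6 and ADGRL3, and the fixed block kept 33, lost ADGRL1 and added rgs13a, gpr137, GPR176 and ADGRG6. Beyond the region calls, the random block added gpr3 for wild telencephalon and GPR50 for populations in midbrain and changed no other call of the 74 genes. Shifting arrays to the same median moved the median region difference over all genes to 0.069, and quantile normalization to 0.052, against 0.012. Over all genes the midbrain population test called 1503 genes with array weights, against 515, and the wild telencephalon test 116 without Transgenic Mosaic 1 and 548 without Scientific Hatchery, against 299. Dim genes limit what can be seen: 21 of the 74 lie in the dimmest 25%, where signal and background are not separated by these values. These include gpr55a, adgrg1, adgrg11, RGS9 and RGS5, so the differences given for them carry this limit.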

Other observations

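The remaining receptors that changed between regions, chosen after their values were seen, were lower in signal or smaller in difference. GPR173, a brain receptor conserved among vertebrates, was higher in telencephalon by 0.22 (SE 0.07, adjusted p = 0.011) and GPR25 by 0.67 (SE 0.16, adjusted p = 0.0011). GPR155, a lysosomal cholesterol sensor, was lower by -0.36 (SE 0.09, adjusted p = 0.0019) and GPR183, an oxysterol receptor of immune cells, by -0.67 (SE 0.23, adjusted p = 0.021). GPR17, a receptor of oligodendrocyte precursors, differed by -0.15 (SE 0.14, adjusted p = 0.42), with 10.96 to 12.96 in telencephalon, against 11.41 to 12.79 in midbrain. The super-conserved receptor GPR27 differed by 0.03 (SE 0.07, adjusted p = 0.75).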
